A study of Mus musculus with 32 samples.

Results

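The 37 genes of the mouse mitochondrial genome were followed across 32 libraries of femur whole bone marrow. They are all rows that the deposited count tables place on chromosome MT, 37 of 41388 genes, and they comprise 13 protein-coding genes, 2 rRNA genes and 22 tRNA genes. Mitochondrial DNA is a small circle that is transcribed from both strands into long precursors, from which tRNAs are cut out and mRNAs and rRNAs released. Its mRNAs encode core subunits of respiratory complexes I, III, IV and V, and its rRNAs form the mitochondrial ribosome that translates them. All other subunits, and the factors that copy, transcribe, process and translate the mitochondrial genome, come from nuclear genes, so that respiration depends on RNA from both genomes.

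All mice were of the C57BL/6 background, 2 months old, and carried a floxed diphtheria toxin receptor (iDTR, labelled DTR flox). DTRADQ mice also carried a Cre recombinase driven by adiponectin regulatory sequence, which is meant to confine killing by toxin to the adiponectin lineage, and Con mice were their Cre-negative littermates. Each genotype was sampled with no diphtheria toxin (DT) and after 1, 2 or 3 days of intraperitoneal toxin at 100 ng per mouse per day, which gives 8 groups of 4 libraries. The toxin-free libraries have no vehicle injection in their labels. No label says whether the libraries of a group came from separate mice, so that p-values measure the spread between these libraries. In whole marrow, fewer cells of a type and less RNA per cell cannot be told apart.

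The sequence of the mitochondrial genome bears on which of its genes can be counted, because a stretch of it lies also in the nuclear genome. In GRCm38, 7 annotated pseudogenes at chr1:24611535-24616197, on the minus strand, follow the order of mitochondrial bases 6390 to 11042. The pseudogene copies of mt-Co2, mt-Atp6, mt-Co3, mt-Nd4l and mt-Nd4 (Gm28661, Gm10925, Gm28437, Gm10222 and Gm28439) aligned to their mitochondrial genes at 100% identity. The copy of mt-Nd3, Gm28438, differed at 1 of 345 aligned bases, and the copy of mt-Co1, Gm29216, at 1 of 483. The first 150 bases of the mt-Nd3 pair (GRCm38 MT bases 9459 to 9608, plus strand; the copy at chr1:24612970-24613119, minus strand) are shown because that base, in capitals, is the only difference between them over the aligned stretch. Counted from 1 at the first base of the gene, it is T3C. The first 150 bases of mt-Co2 (MT bases 7013 to 7162, plus strand) are shown as those of a gene with no such difference: its first 681 bases are those of its copy at chr1:24614885-24615565. The sequences are those of the GENCODE M21 transcripts on GRCm38.
mt-Nd3: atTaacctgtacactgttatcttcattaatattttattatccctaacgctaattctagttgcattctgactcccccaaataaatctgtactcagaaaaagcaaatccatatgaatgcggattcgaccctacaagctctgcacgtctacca
Gm28438: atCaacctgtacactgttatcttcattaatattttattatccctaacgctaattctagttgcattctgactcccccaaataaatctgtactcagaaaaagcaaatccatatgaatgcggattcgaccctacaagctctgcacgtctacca
mt-Co2: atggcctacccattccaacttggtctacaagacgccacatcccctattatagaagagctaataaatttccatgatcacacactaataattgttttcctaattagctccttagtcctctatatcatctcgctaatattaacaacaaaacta

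Counts followed this map. Of the 11 mitochondrial genes that lie wholly inside the copied stretch, 9 never had more than 1 read in a library, and 6 were at 0 in all 32 libraries. mt-Co2 and mt-Co3, the other catalytic-core subunits of cytochrome c oxidase (complex IV) beside mt-Co1, had 6 and 8 reads in all 32 libraries together. mt-Atp6, a proton-channel subunit of ATP synthase (complex V), had 1 read, and mt-Atp8, its small partner, and mt-Nd4l, a membrane subunit of complex I, had 0. The other 2 genes inside the stretch were mt-Nd3, a complex I subunit, with 4641 reads, and the arginine tRNA mt-Tr, with 43. The coordinates of the stretch and its copy keep a constant sum from mt-Co1 to mt-Nd3 and differ by 1 base from mt-Nd4l on, and mt-Tr lies between these. Outside the stretch, 3 of 26 genes were at 0, and all 3 were tRNAs.

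Among 50-base windows of each gene, 100% of those of mt-Co2 and 99.9% of those of mt-Co3 occurred in another annotated gene. The share was 98.0% for mt-Nd3, with 6 windows left that occurred nowhere else, 62.2% for mt-Nd4 and 51.1% for mt-Co1. It was 8.19% for mt-Nd2, 7.61% for mt-Nd5 and 1.04% for mt-Rnr2, and 0 for mt-Nd1, mt-Nd6, mt-Cytb and mt-Rnr1. mt-Atp8 had no shared window: the pseudogene copy of mt-Atp6 reaches over its end, where both genes overlap, by fewer bases than a window holds. The 7 pseudogenes of the stretch held 89 reads in all 32 libraries, so that the missing reads were not counted there either. How reads that map to several places were treated is not given in the sources used here and its part in these counts was not tested. The counts of mt-Co1, mt-Nd3 and mt-Nd4 are therefore uncertain as levels, and no statement about expression is made for the 5 mRNAs with at most 1 read per library. A count of 0 in a library allows an expected count of up to about 3 reads. For genes with shared windows it sets no bound on the RNA, because the treatment of such reads is not given.

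**Figure D1:**
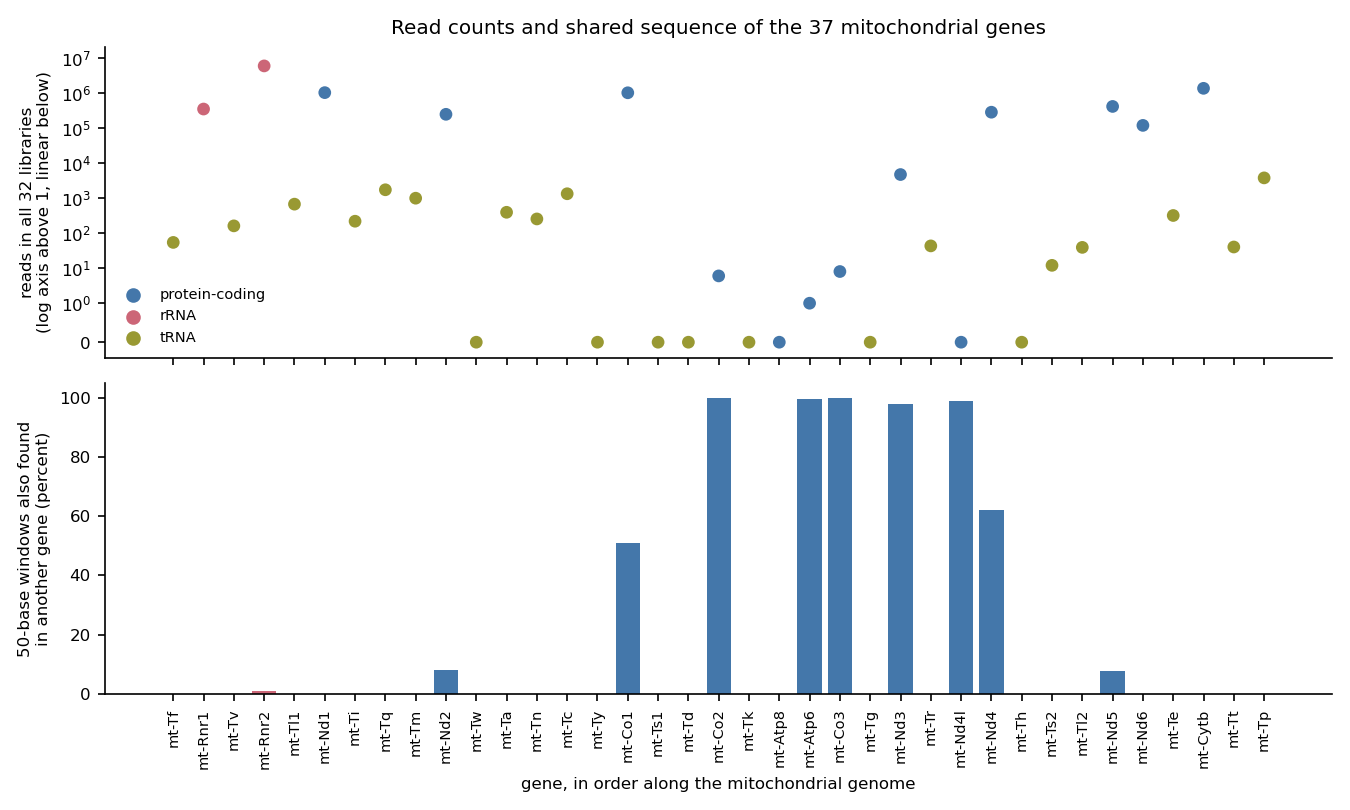
Reads of each of the 37 mitochondrial genes summed over 32 libraries (upper panel, log axis above 1 read) and the percent of its 50-base windows that occur in another annotated gene (lower panel), in order along the mitochondrial genome and coloured by gene class. mt-Co2, mt-Atp6, mt-Co3 and mt-Nd4l, with 98.8% or more of windows shared, had 0 to 8 reads, and mt-Nd3, with 98.0% shared, had 4641.

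Library totals ran from 8966165 to 22929352 counts. Of the 4 Con libraries without toxin, replicates 3 and 4 stood apart: their 10 most abundant genes took 37.4% and 50.7% of all counts. Comparisons that use this group are given with and without this pair. Marker sums followed the design: the 5 adiponectin-lineage stroma genes summed to between 35.1 and 58.0 CPM in the 12 DTRADQ libraries with toxin and to between 433.5 and 766.6 CPM in the 12 Con libraries with toxin. Cardiac muscle markers stayed at or under 0.088 CPM in every library, while 10 skeletal muscle markers summed to 116 to 725 CPM in DTRADQ on day 3 and to 30.6 to 59.5 CPM in Con. The day-3 libraries also carry another lane label than the other 24 libraries, so that day 3 and lane cannot be told apart against no toxin.

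Levels between genes can be compared only per length, here as the deposited RPKM, which divides reads by gene length and library total. mt-Rnr2, the rRNA of the large ribosomal subunit, had the highest level, with a median of 6838 RPKM over 32 libraries and a range of 4702 to 13834. mt-Cytb, the cytochrome b of complex III, followed with a median RPKM of 2472, ahead of mt-Nd1, a complex I subunit, with 2120. mt-Cytb exceeded mt-Nd1 in 29 of 32 libraries. mt-Co1, the catalytic subunit of complex IV, had a median of 1299 RPKM and mt-Rnr1, the rRNA of the small ribosomal subunit, 674. Next came 3 complex I subunits whose order changed between libraries, mt-Nd5 at 478 RPKM, mt-Nd2 at 464 and mt-Nd6 at 462: mt-Nd5 was above mt-Nd2 in 18 of 32 libraries and mt-Nd2 above mt-Nd6 in 20. mt-Nd4 had 423 RPKM and mt-Nd3 26.02.

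This order changed with the length used. Per 1000 windows found in no other gene, in place of gene length, median CPM was 2746 for mt-Co1, 2583 for mt-Cytb and 2235 for mt-Nd1. On that scale mt-Nd3 reached 1509 and mt-Nd4 1160, above mt-Rnr1 at 710. mt-Rnr2 remained first with 7131, and mt-Nd5, mt-Nd2 and mt-Nd6 lay between 510 and 532. mt-Nd3 rests on only 6 windows there. mt-Nd6 is the sole mRNA of the other strand and overlaps the end of mt-Nd5. Without a stated strand setting, reads of mt-Nd6 and of RNA antisense to it cannot be told apart.

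Mitochondrial genes took a smaller share of all counts in DTRADQ than in Con marrow after 2 and 3 days of toxin. The groups did not overlap on those days, but did once the most abundant nuclear genes were left out of the total. On day 2 the 37 genes held 1.51% to 1.83% of the counts in DTRADQ (median 1.63%) and 1.91% to 2.42% in Con (median 2.13%). On day 3 the shares were 1.60% to 1.91% and 2.08% to 2.87%, with medians of 1.77% and 2.29%. On day 1 they were 1.499% to 2.02% and 1.89% to 2.47%, and without toxin 2.58% to 3.19% and 2.39% to 2.94%, both overlapping. No test was made on these sums.

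The classes differed in when the gap was widest. On day 2 the mRNAs took 0.682% to 0.715% of counts in DTRADQ and 0.916% to 1.041% in Con, a ratio of medians of 0.701, while the rRNAs overlapped, at 0.822% to 1.109% and 0.868% to 1.406%. On day 3 the rRNAs did not overlap, at 0.791% to 1.030% in DTRADQ and 1.111% to 1.869% in Con, a ratio of 0.672, and the mRNAs overlapped, at 0.807% to 0.878% and 0.854% to 1.054%, a ratio of 0.890. The rRNA count per mRNA count, which is free of library scaling, was 0.961 to 1.173 in DTRADQ and 1.155 to 1.865 in Con on day 3. A share also depends on the other genes: the 10 most abundant genes took 25.1% to 30.2% of counts in DTRADQ and 19.4% to 22.0% in Con on day 2. With the nuclear genes among them left out of the total, the 37 genes took 2.09% to 2.61% in DTRADQ and 2.37% to 3.05% in Con on day 2, and 2.21% to 2.76% and 2.64% to 3.70% on day 3, so that the groups overlapped on both days. The ratio of medians was then 0.931 on day 1, 0.848 on day 2 and 0.837 on day 3, in place of 0.876, 0.763 and 0.774. Without toxin it was 0.816 in place of 0.936, farther from 1 than on any toxin day, with Con replicates 3 and 4 included. On that scale Con replicates 1 to 4 without toxin took 3.05%, 4.03%, 4.30% and 5.62%, and the DTRADQ libraries 3.30% to 4.14%. The ratio without Con replicates 3 and 4 is not given here.

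**Figure D2:**
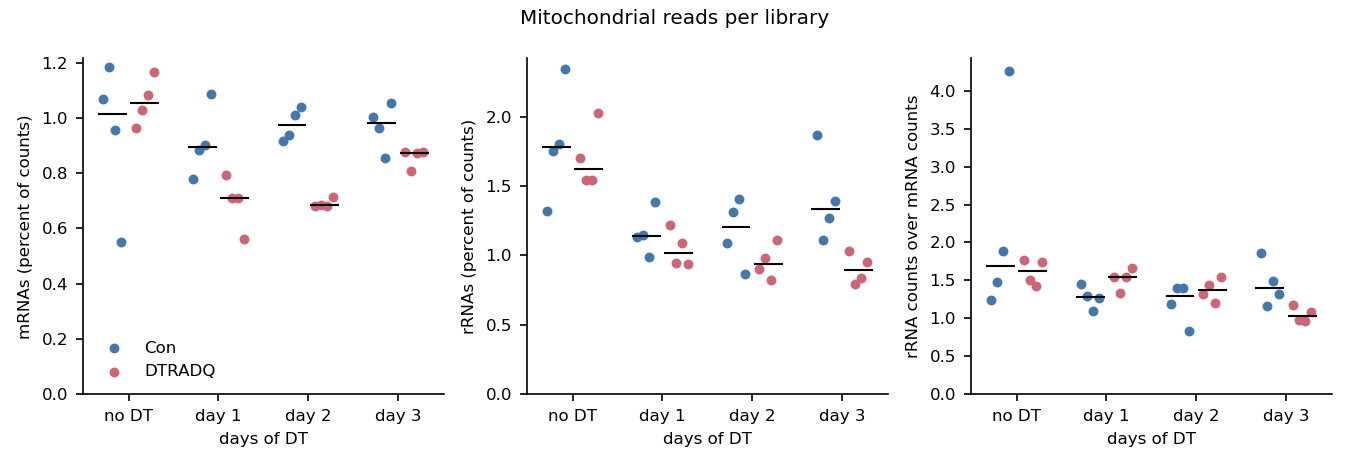
Percent of all counts in the mitochondrial mRNAs and rRNAs and the ratio of rRNA to mRNA counts, per library (points, 4 per group) with group medians (bars), by days of DT and genotype. DTRADQ mRNA shares sit below Con on day 2 (0.682% to 0.715% against 0.916% to 1.041%) and rRNA shares on day 3, and Con replicate 4 without toxin has an rRNA to mRNA ratio of 4.26.

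The differences between genotypes were then tested gene by gene. Counts were scaled by TMM, which sets the bulk of genes equal between libraries, and fitted for all genes with edgeR's quasi-likelihood test with Benjamini-Hochberg adjustment. A gene was called at an adjusted p under 0.05. The filter on low counts left 14527 genes, among them 19 of the 37 mitochondrial genes: 8 mRNAs, both rRNAs and 9 tRNAs.

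None of these 19 genes was called between DTRADQ and Con on day 1, 2 or 3 of toxin, against 3.90%, 8.52% and 22.9% of all genes tested. DESeq2 also called 0 on each day, and at an unadjusted p under 0.05 the counts were 0, 1 and 1. The median log2 change of the 8 mRNAs was -0.14, -0.16 and -0.02 on days 1, 2 and 3, beside -0.01, -0.04 and -0.02 for all genes. On days 1 and 2, 7 of the 8 mRNAs lay below 0, mt-Co1 being the exception on both days.

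Among the mRNAs tested, mt-Cytb was the only one whose genotypes did not overlap on a toxin day. On day 2, mt-Cytb measured 1972, 2205, 2161 and 2412 CPM in the DTRADQ libraries and 2443, 2592, 2662 and 2869 CPM in the Con libraries. Every DTRADQ library lay below every Con library, as did 10.7% of all genes tested on that day. The log2 difference was -0.27 ± 0.19 (SE, n = 4 per group; edgeR adjusted p = 0.378), with a 95% interval of -0.65 to 0.11. By day 3 the values overlapped, at 2557 to 2874 CPM in DTRADQ and 2421 to 2854 in Con, and the log2 difference was 0.04 ± 0.19.

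Among the subunits of complex I, mt-Nd1 had the difference farthest from 0 on day 1. It measured 1694, 1476, 1469 and 1104 CPM in DTRADQ and 1640.2, 1837, 1656 and 2113 CPM in Con. The groups overlapped, and the log2 difference was -0.34 ± 0.17 (SE; edgeR adjusted p = 0.317; 95% interval -0.68 to 0.005). On days 2 and 3 it was -0.29 ± 0.17 and -0.02 ± 0.17. The log2 differences of mt-Nd2 (-0.18, -0.23 and -0.01 on the 3 days), mt-Nd4 (-0.13, -0.16 and 0.02), mt-Nd5 (-0.11, -0.15 and 0.11) and mt-Nd6 (-0.08, -0.16 and -0.25) were of similar size or smaller. mt-Nd3, at 3.8 to 13.6 CPM in libraries with toxin, had 95% intervals reaching from -1.13 to 0.63 over the 3 days. mt-Co1 of complex IV differed by 0.10, 0.05 and -0.09, and its 95% intervals lay within -0.37 and 0.38 on all 3 days.

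The rRNAs differed little on days 1 and 2 and were lower in DTRADQ on day 3, short of the threshold. On day 3 mt-Rnr1 measured 578, 477, 421 and 549.9 CPM in DTRADQ and 1089, 626, 669.8 and 737 CPM in Con. All DTRADQ libraries lay below all Con libraries, as did 20.4% of all genes tested. The log2 difference was -0.62 ± 0.26 (SE; edgeR adjusted p = 0.0879; 95% interval -1.16 to -0.08). Over 9 other ways of fitting, its adjusted p ran from 0.00629 to 0.110 and 5 of them called it, among them the fit without Con replicates 3 and 4 of no toxin (-0.60, adjusted p = 0.0139). mt-Rnr2 on day 3 measured 10513, 7584, 8302 and 8642 CPM in DTRADQ and 16496, 9547, 11428 and 11231 CPM in Con. Those ranges overlapped, through DTRADQ replicate 1 and Con replicate 2 (-0.47 ± 0.25, adjusted p = 0.182). Skeletal muscle markers were higher in the same DTRADQ libraries; with their mean as a covariate mt-Rnr1 differed by -1.12 (adjusted p = 0.00892) and mt-Rnr2 by -0.77. On days 1 and 2 the log2 differences of mt-Rnr1 were 0.12 and 0.01, and those of mt-Rnr2 0.09 and 0.03, and no rRNA interval of these days reached beyond -0.53 or 0.66.

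**Figure D3:**
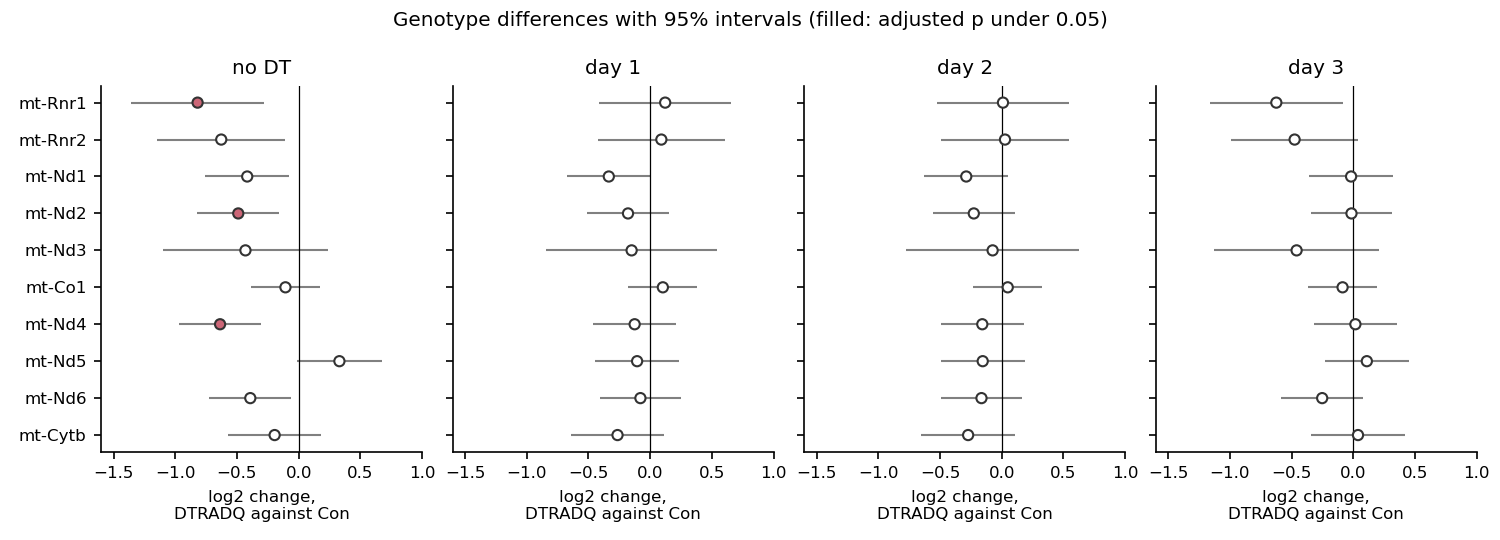
Log2 change of DTRADQ against Con for 2 rRNAs and 8 mRNAs without toxin and on days 1 to 3 (points) with 95% intervals (lines); filled points have an edgeR adjusted p under 0.05. Filled points appear without toxin only, at mt-Rnr1, mt-Nd2 and mt-Nd4, and on day 3 mt-Rnr1 lies at -0.62.

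Scaling mattered for these calls. With library totals in place of TMM, the median of all genes moved to -0.25, -0.36 and -0.18 on days 1, 2 and 3. On that scale 1 mRNA was lower on day 1 (mt-Nd1, -0.58), 5 on day 2 (mt-Cytb, mt-Nd1, mt-Nd2, mt-Nd4 and mt-Nd6, -0.48 to -0.61) and mt-Nd6, mt-Rnr1 and mt-Rnr2 on day 3 (-0.42, -0.78 and -0.64). The percentage of all genes called with library totals is not given here, so these counts have no background beside them. The shares above are set against library totals and the gene-wise differences against the bulk of genes. mt-Co1 had a positive sign on days 1 and 2 with TMM and a negative one with library totals.

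Before any toxin, 7 of the 19 genes were lower in DTRADQ than in Con and none higher, where 27.1% of all genes were called and 14.4% called lower and 12.7% higher. The mRNAs mt-Nd4 (-0.64 ± 0.16 SE, edgeR adjusted p = 0.00482) and mt-Nd2 (-0.49 ± 0.16, adjusted p = 0.0242) passed, as did mt-Rnr1 (-0.82 ± 0.26, adjusted p = 0.0212) and 4 tRNAs. mt-Nd4 measured 569, 557, 591 and 689 CPM in DTRADQ and 618, 843, 885 and 1397 CPM in Con. The highest value came from Con replicate 4, and DTRADQ replicate 4 lay above Con replicate 1. Without Con replicates 3 and 4, and likewise with only these groups fitted, 0 of the 19 were called. With library totals, which moved the median of all genes to 0.41, 2 were called, among them mt-Nd5 as higher (0.68), and 2 of the 8 mRNAs lay below 0. The asparagine tRNA mt-Tn was the only one of the 19 with all DTRADQ libraries below all Con libraries, as were 5.42% of all genes. Leaving out Con replicate 3 alone left 1 call, leaving out DTRADQ replicate 1 left 3, and leaving out Con replicate 1 gave 11.

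Toxin was also given to Con mice, which carry no Cre, so that their days can be set against no toxin. In Con marrow 6, 6 and 4 of the 8 mRNAs, both rRNAs and 4 of the 9 tRNAs were lower on days 1, 2 and 3, where 33.4%, 28.3% and 30.2% of all genes were called, and 17.4%, 14.4% and 15.4% called lower. No mitochondrial gene was higher. mt-Nd2 ran from 626 to 1069.98 CPM without toxin, from 383 to 514 on day 1, from 365 to 515 on day 2 and from 424 to 509 on day 3. None of the toxin-free Con libraries overlapped the later ones, but the share of all genes so separated was not determined. The log2 changes of mt-Nd2 were -0.95, -0.92 and -0.88, with an SE of 0.16 each (edgeR adjusted p = 4.40e-05, 8.01e-05 and 0.000114). mt-Rnr1 ran from 773 to 2739 CPM without toxin and from 441 to 584 on day 1 (-1.54 ± 0.27, adjusted p = 5.23e-05). mt-Cytb and mt-Nd5 were not called on any day. mt-Co1 was lower on days 1 and 2 (-0.41 on both) and mt-Nd6 on day 3 (-0.46), but library totals, which moved the median of all genes by 0.46 to 0.55, gave 0.09, 0.14 and 0.07. Without Con replicates 3 and 4 of no toxin, the mRNAs called were 6, 5 and 4, mt-Cytb among them on each day (-0.60 on day 1), and the rRNAs 2, 1 and 0. With only the groups compared in the fit, 5, 2 and 2 genes were called, and none of them was an mRNA. Blood-cell markers moved with this comparison. The 9 erythroid markers summed to 20390.4, 30332, 58162 and 102288 CPM in Con replicates 1 to 4 without toxin and to 15431 to 27682 CPM in Con with toxin. The 8 neutrophil markers summed to 112645, 183524, 193412 and 236892 CPM and to 59442 to 128733 CPM. Their part in the changes was not tested.

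In DTRADQ marrow fewer genes passed than in Con, but that order depended on the fit. With only the groups compared, more mitochondrial genes were called in DTRADQ than in Con on each day. With library totals, more were called in DTRADQ on days 2 and 3. In the fit as reported, mt-Nd1 and mt-Nd2 were lower on days 1 and 2, and both rRNAs on day 3. Of all genes, 5.48%, 9.11% and 29.4% were called on days 1, 2 and 3. The mt-Tp tRNA on day 2 and mt-Ti on day 3 completed the 2, 3 and 3 calls, all lower, where 4.22%, 4.85% and 16.8% of all genes were lower. mt-Nd1 measured 1949, 2244, 2362 and 2741 CPM without toxin, 1104 to 1694 on day 1 (-0.69 ± 0.17 SE, edgeR adjusted p = 0.00996) and 1315 to 1800.3 on day 2 (-0.57 ± 0.17, adjusted p = 0.0314). On both days every library lay below every toxin-free library, but the share of all genes so separated was not determined. On day 3 mt-Nd1 stood at 1896 to 2181 CPM, overlapping the range without toxin (-0.18 ± 0.17, adjusted p = 0.453). The rRNAs passed the test on day 3: mt-Rnr2 ran from 13489 to 18532 CPM without toxin and from 7584 to 10513 on day 3 (-0.79 ± 0.25, adjusted p = 0.0181), and mt-Rnr1 changed by -0.76 ± 0.26 (adjusted p = 0.0291). The calls rest on single libraries in part: without DTRADQ replicate 4 of no toxin 0, 0 and 1 of the 19 genes were called on days 1, 2 and 3, in place of 2, 3 and 3. Without replicate 4 of day 1 the day-1 count was 0. Without DTRADQ replicate 3 of no toxin, or replicate 2 or 3 of day 2, the day-2 count was 1, and without replicate 2 or 3 of day 3 the day-3 count was 1. DTRADQ replicate 4 of no toxin also had skeletal muscle markers summing to 341.5 CPM, against 33.2 to 112.9 in the other 3. With the muscle covariate 0, 0 and 4 genes were called, so that none of the day-1 and day-2 calls of mt-Nd1, mt-Nd2 and mt-Tp passed. Without Con replicates 3 and 4 of no toxin, which enter this comparison only through the shared filter, scaling and estimate of spread, 7, 12 and 5 were called.

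**Figure D4:**
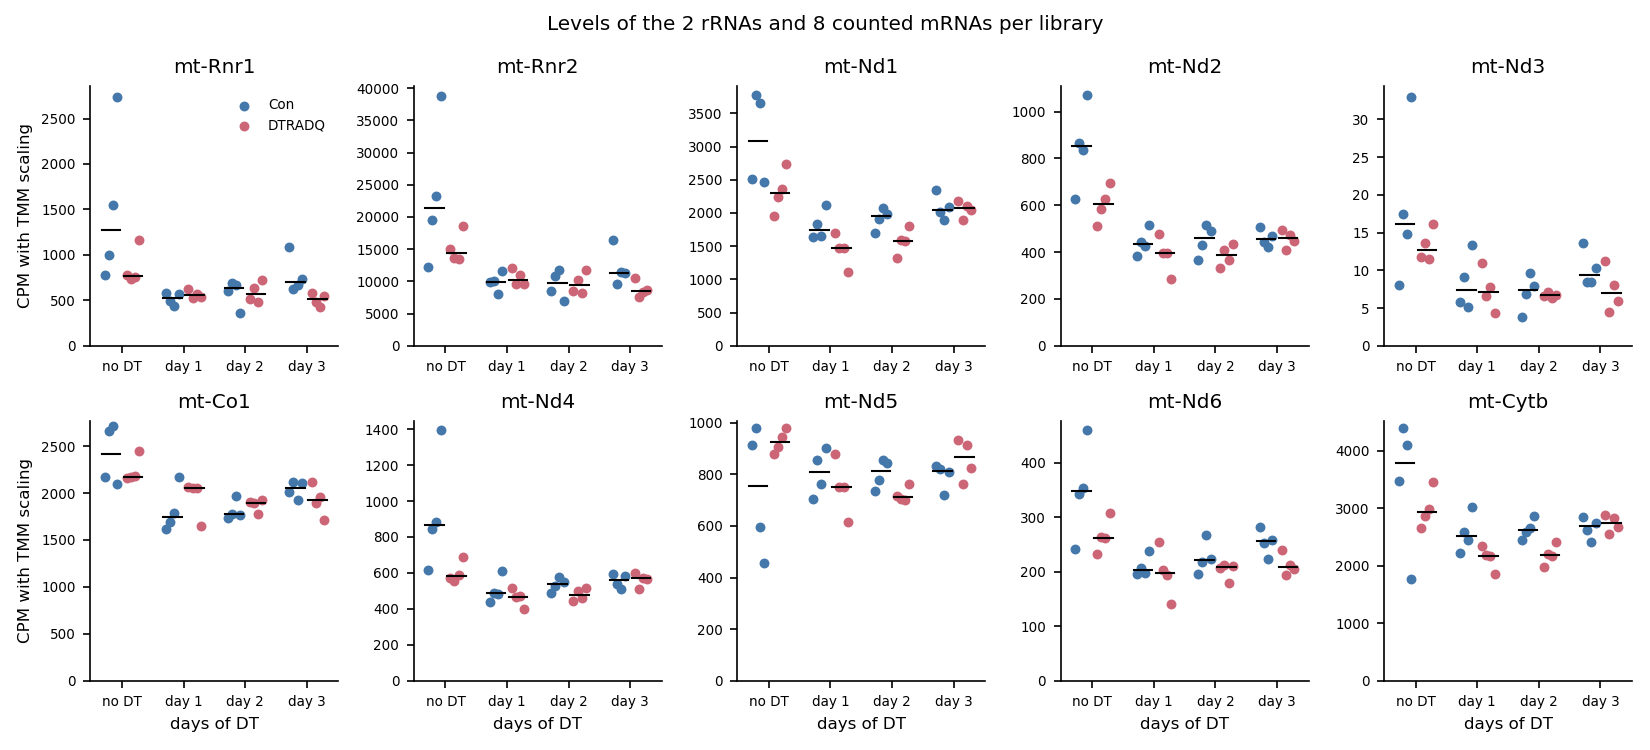
CPM with TMM scaling of the 2 rRNAs and the 8 counted mRNAs in each library (points) with group medians (bars), by days of DT and genotype. Con libraries without toxin spread widely, mt-Rnr2 from 12276 to 38744 CPM, and in DTRADQ mt-Nd1 falls from 1949 to 2741 CPM without toxin to 1104 to 1694 on day 1.

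Whether the change with toxin differed between genotypes was tested as an interaction. Only 1, 0 and 3 of the 19 genes were called on days 1, 2 and 3, where 12.3%, 11.1% and 21.0% of all genes were called. They were the proline tRNA mt-Tp on day 1 (1.22 ± 0.32 SE, edgeR adjusted p = 0.00982) and mt-Nd4 (0.65 ± 0.23, adjusted p = 0.0422), the methionine tRNA mt-Tm (1.22 ± 0.41, adjusted p = 0.0309) and mt-Tp (0.90 ± 0.31, adjusted p = 0.0367) on day 3. Positive values mean a smaller fall with toxin in DTRADQ. With library totals, which moved the median of all genes by -0.69, -0.76 and -0.58, mt-Nd4 stood at -0.03 on day 3 and the mRNAs called had negative values, 6 of them on day 2 (-0.54 to -1.16). On day 2, 4 genes had an unadjusted p under 0.05 and DESeq2 called 0. No gene was called on any of these days without Con replicates 3 and 4 of no toxin, nor with only the groups compared. Without Con replicate 1 of no toxin the counts were 5, 4 and 6. The day-3 count was 0 without Con replicate 4 or DTRADQ replicate 1 or 3 of no toxin. It was 1 without Con replicate 3 or DTRADQ replicate 2 of no toxin, replicate 1, 2 or 3 of Con on day 3, or replicate 1, 3 or 4 of DTRADQ on day 3.

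The tRNAs were counted in low numbers, at most 181 reads for a gene in a library. Of the 22, 7 were at 0 in all libraries, and 9 passed the filter: mt-Ta, mt-Tc, mt-Te, mt-Ti, mt-Tl1, mt-Tm, mt-Tn, mt-Tp and mt-Tq. The last letter or letters of a symbol give the amino acid. mt-Tp and mt-Tm are shown because they are the tRNAs called in the interaction, beside mt-Nd4, with the anticodon in capitals (GRCm38, MT bases 15356 to 15422, minus strand, and 3845 to 3913, plus strand).
mt-Tp: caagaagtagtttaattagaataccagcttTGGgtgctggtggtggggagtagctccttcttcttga
mt-Tm: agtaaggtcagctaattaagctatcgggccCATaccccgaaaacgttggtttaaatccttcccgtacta

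A read counted to a tRNA may come from the tRNA or from a precursor that contains it, and the counts do not tell these apart. Without a stated strand setting, RNA antisense to the tRNA cannot be told apart either. mt-Tp measured 8.2, 14.4, 22.9 and 19.5 CPM in the Con libraries without toxin and 4.3 to 6.7 on day 1 (-1.46 ± 0.23 SE, edgeR adjusted p = 1.15e-05). In DTRADQ it measured 8.2, 9.0, 8.2 and 11.7 CPM without toxin and 6.1 to 9.8 on day 1, overlapping. mt-Tm stood at 2.5, 3.4, 7.7 and 7.9 CPM in Con without toxin, the high pair being replicates 3 and 4, and at 2.0 to 2.7 in DTRADQ. Between genotypes on days 1 to 3 no tRNA was called, and the log2 differences of the 9 ran from -0.91 to 1.11. The upper end was the alanine tRNA mt-Ta on day 2, where all DTRADQ libraries lay above all Con libraries, as did 10.7% of all genes (adjusted p = 0.155).

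The make-up of the mitochondrial mRNA pool, each gene's share of the counts of the 8 mRNAs, set 1 library apart. In Con replicate 4 without toxin mt-Cytb took 18.1%, mt-Nd4 14.3%, mt-Nd6 4.72% and mt-Nd2 10.98%. Over the other 31 libraries mt-Cytb took 28.4% to 32.9%, mt-Nd4 5.80% to 6.73%, mt-Nd6 2.29% to 3.099% and mt-Nd2 4.71% to 6.35%. The other shares varied more over these 31 libraries: mt-Nd1 took 18.3% to 27.8%, mt-Co1 19.2% to 27.6% and mt-Nd5 4.54% to 10.7%. mt-Nd5 was low in both Con replicates 3 and 4 without toxin, at 4.54% and 4.70%. mt-Co1 took a larger share of the pool in DTRADQ than in Con on day 1, at 25.0% to 27.3% against 20.9% to 23.1%, and on day 2, at 23.9% to 27.6% against 20.2% to 22.6%. Its shares did not overlap on either day, nor without toxin (21.6% to 24.1% against 19.2% to 21.6%, where the DTRADQ minimum of 21.609% lay just above the Con maximum of 21.553%), and overlapped on day 3. mt-Nd1 took 18.3% to 20.6% in DTRADQ and 21.3% to 22.8% in Con on day 1, again with no overlap, and overlapped on the other days and without toxin. mt-Cytb took less of the pool in DTRADQ on day 1, at 28.4% to 30.6% against 30.8% to 31.8%. On day 3 it took more, at 30.4% to 31.5% against 29.8% to 30.3%. mt-Nd6 took 2.34% to 2.54% in DTRADQ and 2.75% to 2.99% in Con on day 3, also with no overlap. No test was made on these shares, which are free of library scaling and show unequal change only.

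Some of the nuclear genes that serve the mitochondrial genome were called between genotypes after toxin, and most of those called were lower in DTRADQ. Of all genes tested, 3.02%, 4.12% and 14.1% were lower on days 1, 2 and 3 and 0.888%, 4.40% and 8.80% higher. Lower calls thus also outnumbered higher ones among all genes on days 1 and 3. No list was tested against these percentages. Of 18 genes for mitochondrial DNA transcription and replication, 1, 0 and 2 were called lower on days 1, 2 and 3 and none higher. They were Twnk, the replicative helicase, on day 1 (-0.62 ± 0.18 SE, edgeR adjusted p = 0.0443), and on day 3 Tfb1m, which methylates the small-subunit rRNA (-0.80 ± 0.19, adjusted p = 0.00231), and Tfam, which packages the genome and activates its promoters. Tfam measured 23.4 ± 1.3 CPM in DTRADQ and 33.2 ± 2.1 in Con on day 3 (SD, n = 4; -0.51 ± 0.15 SE, edgeR adjusted p = 0.0149), after -0.28 ± 0.15 on day 1 and -0.47 ± 0.15 on day 2. Polrmt, the mitochondrial RNA polymerase, differed by -0.37, -0.33 and 0.11, and Ppargc1a, a coactivator of biogenesis, by 0.18, -1.11 and -0.05, none of them called. Of 8 biogenesis regulators, Yy1 (-0.66) and Ppargc1b (-0.74) were lower on day 3, and the list's median was 0.06, -0.07 and -0.17.

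Genes for mitochondrial RNA processing and decay numbered 23, of which 0, 2 and 5 were lower and none higher, with list medians of -0.24, -0.15 and -0.20. On day 2 they were Fastkd5, an RNA granule protein (-0.70 ± 0.14 SE, edgeR adjusted p = 0.00122), and Trmt61b, a methyltransferase (-0.70). On day 3 Mrm1, which methylates the large-subunit rRNA, fell from 12.3 ± 0.87 CPM in Con to 4.76 ± 0.95 in DTRADQ (SD, n = 4; -1.37 ± 0.22 SE, edgeR adjusted p = 2.85e-05). Pde12, which trims poly(A) tails, differed by -0.82, and Lrpprc, which stabilises mitochondrial mRNAs, by -0.78. Of 75 mitochondrial ribosomal protein genes 3, 4 and 8 were lower and none higher. Mrpl12 had the smallest p on day 1 (-0.84), Mrps30 on day 2 (-1.22) and Mrpl47 on day 3 (-0.55), and the list's median was -0.20, -0.20 and -0.26.

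Of 36 nuclear complex I genes, 0, 1 and 6 were lower on days 1, 2 and 3, beside the 3.02%, 4.12% and 14.1% of all genes, led by Ndufb2 on day 2 (-0.53) and by Ndufb2 (-0.44), Ndufv2 (-0.45) and Ndufb4 (-0.80) on day 3. Of 16 complex V genes, Atpif1, an inhibitor of ATP synthase, was lower on day 3 (-1.01 ± 0.28 SE, edgeR adjusted p = 0.00778), and of the 4, 9 and 11 genes of complexes II, III and IV none was called. These counts rose without Con replicates 3 and 4 of no toxin, to 1, 6 and 12 for complex I and to 12, 16 and 24 lower for the ribosomal proteins. With library totals they were 8, 25 and 16, and 26, 46 and 32. The percentages of all genes called under these settings are not given here.

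Mitophagy genes went against this direction on day 2, when Bnip3l, a receptor that clears mitochondria in maturing red cells, and Gabarapl2, of the autophagosome membrane, were higher and none of 11 lower. Bnip3l measured 761 ± 157 CPM in DTRADQ and 371 ± 95 in Con (SD, n = 4; 1.04 ± 0.23 SE, edgeR adjusted p = 0.00399). The 9 erythroid markers summed to 29171 to 51348 CPM in the same DTRADQ libraries and 15431 to 27152 in Con, and their part in this difference was not tested. On day 3 Atg7, an autophagy enzyme, was higher (0.60), and the kinases Pink1 (-0.64) and Ulk1 (-0.54) were lower. The list's median was 0.33, 0.28 and -0.03.

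Per library, the 8 mitochondrial mRNAs were set against 72 nuclear subunit genes of complexes I, III, IV and V. The nuclear genes took 0.852% to 0.949% of counts in DTRADQ and 1.183% to 1.361% in Con on day 2, and 0.866% to 0.921% and 1.155% to 1.282% on day 3. Mitochondrial mRNA counts per nuclear count were alike in range on day 2, at 0.719 to 0.804 in DTRADQ and 0.762 to 0.825 in Con. On day 3 they were 0.876 to 1.011 in DTRADQ and 0.707 to 0.868 in Con, with no overlap. Without toxin they were 0.824 to 0.885 in DTRADQ and 0.231 to 0.778 in Con, lowest in Con replicates 3 and 4. In that toxin-free comparison 29 of the 36 complex I genes were lower in DTRADQ, with a list median of -1.17, and 0 were called with only these groups in the fit.

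**Figure D5:**
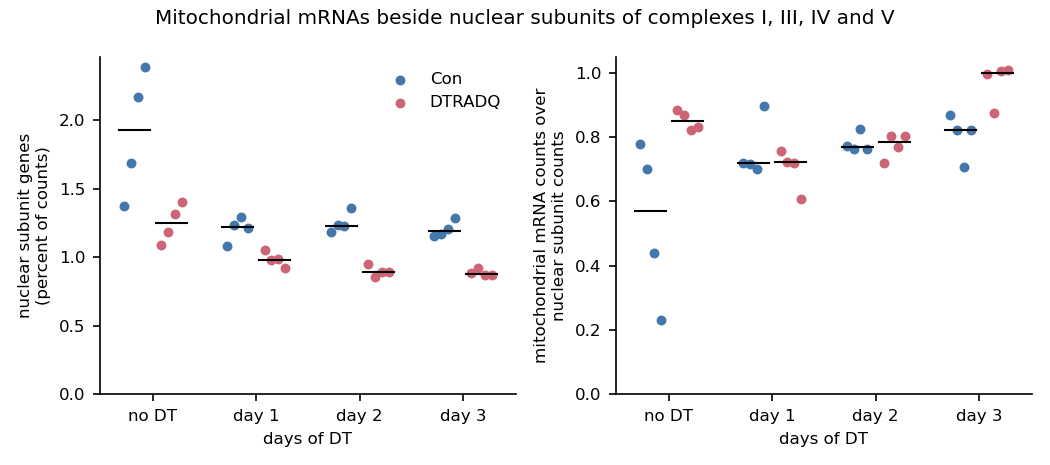
Share of counts in 72 nuclear subunit genes of complexes I, III, IV and V (left, percent) and mitochondrial mRNA counts per nuclear subunit count (right), per library (points) with group medians (bars), by days of DT and genotype. On day 3 the ratio is 0.876 to 1.011 in DTRADQ and 0.707 to 0.868 in Con.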

How the data were processed

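Per the labels' protocols, SMARTer libraries (Clontech) were prepared from total RNA of femur marrow. GRCm38, STAR 2.0.4b, Subread, featureCounts 1.45 and bcl2fastq are listed in the submitters' processing notes. Whether counting used strand, which annotation release it used and how multiply mapping reads were handled are not given in those sources. Each deposited table holds, by its header, the authors' raw read count, CPM and RPKM for every gene of a library. The deposited CPM equalled count per library total, and the deposited RPKM that value per kilobase of gene.

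Symbols came from GENCODE M21, whose coordinates matched for all 37 genes. Raw counts of all 32 libraries were filtered (filterByExpr, minimum count 10), scaled by TMM and fitted with 8 group means in edgeR 4.0.16 (glmQLFit, glmQLFTest), with Benjamini-Hochberg adjustment over 14527 genes, for 13 contrasts. CPM values in the text carry TMM scaling, for marker sums with factors from all genes before the filter. Levels per window use library totals. Alternatives used DESeq2 1.42.0, limma 3.58.1 and other settings. On simulated data for the day-3 comparison (14287 genes), 100% of log2 changes of 2 and 90% of changes of 1 were recovered, with 9 false calls. The changed genes were drawn only from genes with higher counts. Spread followed the trend over genes, and all libraries otherwise shared each gene's mean. The rates therefore do not cover the low-count tRNAs, changes smaller than 1 or the outlying Con libraries without toxin.

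The genes and lists were chosen with earlier results of these data known. Named genes are the mitochondrial mRNAs and rRNAs, the tRNAs past the filter, and per nuclear list up to 3 called genes with the smallest p on each toxin day, plus Tfam, Polrmt and Ppargc1a. Shared windows were counted over GENCODE M21 transcripts at 50 bases, a length set after the counts were seen.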

Additional observations from a re-analysis of the deposited data

Results flagged for a closer look

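Four-library groups were scanned for a library far from the other 3, over 120 sets of values, where chance alone gives about 1 in 20; 6 were found. mt-Co1 stood at 2451 CPM in DTRADQ replicate 4 without toxin, with the others at 2159 to 2179.5, and at 1648 CPM in DTRADQ replicate 4 of day 1, with the others at 2049.99 to 2060.2. mt-Rnr1 stood at 1169 CPM in DTRADQ replicate 4 without toxin, beside 729.6 to 780.5, and the share of all 37 genes was 3.192% in that library, beside 2.58% to 2.66%. The mRNA share was 0.7152% in DTRADQ replicate 4 of day 2, beside 0.682% to 0.685%, and 0.807% in DTRADQ replicate 2 of day 3, beside 0.873% to 0.878%.

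The change with toxin differed between genotypes, by an interaction term, for mt-Tp on day 1 (1.22, edgeR adjusted p = 0.00982) and for mt-Tm (1.22, 0.0309), mt-Nd4 (0.65, 0.0422) and mt-Tp (0.90, 0.0367) on day 3. None was called without Con replicates 3 and 4 of no toxin.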

How the results depend on the processing

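Counts of mitochondrial genes called between DTRADQ and Con are given for no toxin and days 1, 2 and 3 in that order, then for toxin against none in Con and in DTRADQ and for the interaction on days 1, 2 and 3; as reported they were 7, 0, 0 and 0, then 12, 12 and 10, then 2, 3 and 3, then 1, 0 and 3. With library totals in place of TMM they were 2, 1, 5 and 3, then 9, 6 and 4, then 9, 12 and 7, then 2, 7 and 2. With voom and library weights they were 6, 1, 0 and 2, then 13, 13 and 11, then 9, 11 and 7, then 1, 0 and 7. With a skeletal muscle covariate they were 9, 0, 0 and 1, then 12, 12 and 10, then 0, 0 and 4, then 2, 1 and 0. Without Con replicates 3 and 4 of no toxin they were 0, 0, 0 and 1, then 10, 8 and 6, then 7, 12 and 5, then 0, 0 and 0. With only the groups compared they were 0, 0, 1 and 1, then 5, 2 and 2, then 7, 10 and 5, then 0, 0 and 0. Without the filter on low counts the interaction count of day 3 was 0. The cause of these changes was not tested, and the percentages of all genes called under these settings are not given here. Signs turned for called values only with library totals: in Con, mt-Co1 to 0.0936 on day 1 and 0.14 on day 2 and mt-Nd6 to 0.0741 on day 3; in the interaction, mt-Nd1 to -0.62, mt-Nd2 to -0.54, mt-Co1 to -0.59 and mt-Nd6 to -0.58 on day 2, and mt-Co1 to -0.57, mt-Nd4 to -0.028 and mt-Nd6 to -0.52 on day 3.

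With 1 library left out at a time, the genotype counts were 1 to 11 without toxin and 0 on days 1, 2 and 3; those of Con were 11 to 12, 11 to 13 and 8 to 11, those of DTRADQ 0 to 3, 0 to 3 and 1 to 3, and those of the interaction 1 to 5, 0 to 4 and 0 to 6. The ratio of median shares ranged over 0.914 to 0.958 without toxin and over 0.840 to 0.912, 0.721 to 0.810 and 0.723 to 0.832 on days 1, 2 and 3. With the most abundant nuclear genes left out of the total it was 0.816 without toxin, 0.848 on day 2 and 0.837 on day 3. The value of 0.816 includes Con replicates 3 and 4 of no toxin, whose shares on that scale were 4.30% and 5.62%.

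A fit with the replicate number as a block gave the counts as reported except 4 for the interaction on day 3. Over 112 same-numbered pairs the median correlation of deviations was 0.0566 and 33.0% exceeded 0.1, against -0.0134 and 11.6% over 336 pairs of other numbers; for the 16 same-numbered pairs of 1 day they were 0.0849 and 37.5%. Same-numbered pairs thus exceeded 0.1 more often, though not every pair did. These values cannot show that the numbers carry no shared structure. No label says what the numbers stand for, and the reported fits did not use them to pair the samples. Low counts limit the tRNAs and mt-Nd3.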
